A study of Mus musculus with 14 samples.

Results

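Smarca4 (also called Brg1), the ATPase of the BAF chromatin remodelling complex, was mapped by ChIP-seq in mouse embryonic stem cells with and without knockdown of Smarcb1. The sites described here are those that lay inside gene bodies, away from transcription start sites (TSS). The sites were chosen by merging the Smarca4 peaks of both conditions wherever they overlapped, keeping merged sites that lay whole within a protein-coding gene of GENCODE M21 (mm10) and whose nearer edge was more than 2.5 kb from each of the 132629 annotated TSS. This gave 24924 of 100253 merged sites, or 24.9% (95% Wilson interval 24.6 to 25.1), beside 43370 sites within 2.5 kb of a TSS (TSS-proximal), 28545 intergenic sites and 3414 others, such as sites that crossed a gene end or lay in a non-coding gene. The rule used the presence of a peak and its place, so that these counts describe the choice and are not a finding. Just outside the limit, the 1940 sites at 2.0 to 2.5 kb from a TSS included 1431 with a control peak, of which 61.1% had no kd peak. Just inside it, the 1585 sites at 2.5 to 3.0 kb included 1209 with a control peak, of which 61.2% had no kd peak.

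The cells were 81K1, a line derived from the OG2 embryonic stem cell line that carries, in a single selected clone (K1), an shRNA against Smarcb1 at the Rosa26 locus under a doxycycline-dependent promoter. Control cells (ctrl) carried the same cassette and were left untreated, whereas Smarcb1 knockdown cells (kd) received 1 µg doxycycline per ml of medium daily and were fixed at 72 h. There was 1 library per antibody and condition, for Smarca4, H3K27ac, H3K4me3, H3K27me3 and Ezh2. No test between conditions could therefore be made, intervals cover counting error only, and the absence of a called peak is not a measured loss of binding. In control cells, 6 of 8 stem cell marker genes had an H3K27ac island within 1 kb of a TSS and 8 of 8 an H3K4me3 island. Among 8 markers of other lineages, 0 had H3K27ac and 3 had H3K4me3.

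The embryonic stem cell form of the complex, esBAF, slides and evicts nucleosomes. Smarcb1 is a core subunit that contacts the nucleosome. Introns of mammalian genes hold many enhancers, which are commonly marked by H3K27ac without H3K4me3, while H3K4me3 marks promoters and H3K27me3, written by Ezh2 in Polycomb repressive complex 2, marks repressed developmental genes.

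The sites with the highest peak scores in each class are examples and need not be typical of their class. The central 300 bp of 8 of them are given here from the plus strand of mm10. The score is the MACS2 score of the authors, a whole number that is higher for a more significant peak and was 13 at the lowest in both Smarca4 lists. Sites are called strong below by this score alone. It is not scaled between libraries. Capitals mark exact matches, on either strand, to 1 of the motifs searched (the octamer ATTTGCAT, Sox CATTGT, Esrrb TCAAGGTCA, Klf GGGNGTGG, AP-1 TGANTCA, Tead GGAATGT and the CTCF consensus), and a sequence without capitals had no match. A pair of shared sites comes first, an intronic site of Srcin1, an adaptor of Src kinase signalling, with a score of 793 in control and 345 in kd (chr11:97534244-97534543), and an intronic site of Tns3, a tensin of focal adhesions, with 759 and 764 (chr11:8624845-8625144).
Srcin1, shared: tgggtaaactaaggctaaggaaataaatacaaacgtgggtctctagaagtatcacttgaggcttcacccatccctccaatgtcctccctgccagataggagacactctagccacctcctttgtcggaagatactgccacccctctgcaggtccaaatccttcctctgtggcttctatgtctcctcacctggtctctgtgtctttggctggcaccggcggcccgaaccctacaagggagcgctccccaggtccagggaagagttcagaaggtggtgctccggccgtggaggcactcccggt
Tns3, shared: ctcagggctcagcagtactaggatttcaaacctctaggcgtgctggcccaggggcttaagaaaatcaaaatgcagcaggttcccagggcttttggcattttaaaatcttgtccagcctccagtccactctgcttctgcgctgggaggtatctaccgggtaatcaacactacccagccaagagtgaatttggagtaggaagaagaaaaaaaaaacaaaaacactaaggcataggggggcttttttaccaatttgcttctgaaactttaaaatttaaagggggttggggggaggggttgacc

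The strongest sites called in control only had scores of 423 in Sh3pxd2a, an adaptor of podosomes (chr19:47451029-47451328), 368 in Abca4, a retinoid transporter (chr3:122145524-122145823), and 344 in Zfp385c, a zinc finger gene (chr11:100681488-100681787). None of these 3 lay in a histone mark island or Ezh2 peak of either condition. All of them had a motif match, with Klf and AP-1 matches in Sh3pxd2a, a row of Sox matches in Abca4 and an AP-1 match in Zfp385c. Over all control-only sites, 15.3% had a Klf match, 14.4% a Sox match and 9.23% an AP-1 match.
Sh3pxd2a, control-only: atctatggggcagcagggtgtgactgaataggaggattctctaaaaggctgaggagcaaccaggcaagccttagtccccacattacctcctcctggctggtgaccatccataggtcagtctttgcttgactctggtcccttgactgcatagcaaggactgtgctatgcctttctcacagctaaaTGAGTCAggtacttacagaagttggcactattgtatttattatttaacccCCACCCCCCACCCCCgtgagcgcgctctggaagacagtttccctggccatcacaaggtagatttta
Abca4, control-only: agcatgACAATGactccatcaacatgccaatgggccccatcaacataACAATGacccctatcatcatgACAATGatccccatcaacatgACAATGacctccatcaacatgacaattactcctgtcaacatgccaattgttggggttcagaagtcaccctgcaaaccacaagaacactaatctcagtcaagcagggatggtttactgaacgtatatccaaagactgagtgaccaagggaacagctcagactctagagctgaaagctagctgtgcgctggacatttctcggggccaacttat
Zfp385c, control-only: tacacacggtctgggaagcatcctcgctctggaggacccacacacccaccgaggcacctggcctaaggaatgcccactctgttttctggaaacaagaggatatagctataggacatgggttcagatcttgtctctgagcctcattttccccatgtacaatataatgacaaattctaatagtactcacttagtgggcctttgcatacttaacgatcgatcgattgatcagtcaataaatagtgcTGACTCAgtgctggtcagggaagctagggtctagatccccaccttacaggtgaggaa

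Of the 3 strongest sites called in kd only, the first lay in Xrcc4, a DNA end-joining factor (chr13:90043241-90043540), with a kd score of 378, and the second in Epha6, an ephrin receptor (chr16:59783855-59784154), with 357. Of their bases, 100% and 97.6% were repeat-masked (lower case in the reference genome), and the GC content of the printed windows was 68.0% and 66.0%. A run of 131 bases was identical between them on opposite strands, whereas no other pair of the sequences compared shared a run of more than 11 bases on either strand. Both sites lay in islands of H3K27ac and of H3K4me3 in each condition. The third, in Fgf14, a fibroblast growth factor homologue, had a kd score of 356 and differed from them, with 60.4% of its bases repeat-masked, a GC content of 45.3% and H3K27ac without H3K4me3 in each condition. Its sequence is not printed. Of all kd-only sites, 29.7% were at least 50% repeat-masked.
Xrcc4, kd-only: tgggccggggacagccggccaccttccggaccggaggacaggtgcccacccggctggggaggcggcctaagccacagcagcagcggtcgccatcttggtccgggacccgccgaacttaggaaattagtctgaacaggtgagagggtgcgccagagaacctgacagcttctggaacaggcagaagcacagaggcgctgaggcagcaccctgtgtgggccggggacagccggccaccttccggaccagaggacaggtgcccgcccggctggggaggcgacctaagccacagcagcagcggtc
Epha6, kd-only: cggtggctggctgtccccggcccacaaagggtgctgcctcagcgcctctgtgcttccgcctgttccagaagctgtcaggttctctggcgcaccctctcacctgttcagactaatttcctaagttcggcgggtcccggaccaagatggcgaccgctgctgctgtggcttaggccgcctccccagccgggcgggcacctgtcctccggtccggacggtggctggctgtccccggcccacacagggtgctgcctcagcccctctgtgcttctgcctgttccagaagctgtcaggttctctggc

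The highest-scoring site with its midpoint in a coding exon lay in Hapln4, a hyaluronan-binding matrix protein (chr8:70088318-70088617), with a score of 703 in control and 344 in kd. It lay in an H3K27me3 island in both conditions, and in an H3K4me3 island and an Ezh2 peak in kd.
Hapln4, coding exon: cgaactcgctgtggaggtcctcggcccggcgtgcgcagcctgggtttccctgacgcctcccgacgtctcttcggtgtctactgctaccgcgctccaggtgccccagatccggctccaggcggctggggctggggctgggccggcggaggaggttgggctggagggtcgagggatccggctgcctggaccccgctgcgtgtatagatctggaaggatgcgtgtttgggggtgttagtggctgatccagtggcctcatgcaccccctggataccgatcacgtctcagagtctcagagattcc

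Gene-body sites were called less often in kd cells than in control cells. Of the 24924 sites, 19025 had a control peak and 12406 a kd peak. A total of 12518 sites (50.2%, 49.6 to 50.8) were called in control only, where the background over all merged sites was 34.6%. A further 5899 sites (23.7%, 23.1 to 24.2) were called in kd only, where the background was 25.7%, and 6507 sites (26.1%, 25.6 to 26.7) were shared. On the log2 scale, the number of kd-only over that of control-only sites was −1.09 inside gene bodies, −0.40 near a TSS and 0.12 between genes. The intergenic direction turned without sites that were at least 50% repeat-masked, since 4522 of the remaining 18994 intergenic sites were kd-only and 8350 control-only. Put by condition, 65.8% (65.1 to 66.5) of the control-called gene-body sites had no kd peak, beside 32.3% (31.9 to 32.8) of TSS-proximal and 52.4% (51.7 to 53.1) of intergenic sites. In the other direction, 47.5% (46.7 to 48.4) of the kd-called gene-body sites had no control peak, beside 26.6% (26.1 to 27.1) of TSS-proximal, 54.5% (53.8 to 55.2) of intergenic and 39.3% of all kd-called sites. The paper instead compared the conditions by differential peaks, over gene regions that include promoters, and found Smarca4 increased more often than decreased there. The lists used here held 79014 control and 72339 kd peaks, more than the paper counts.

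Peaks with low scores were more often called in 1 condition alone, and gene-body sites had lower control scores (median 56) than TSS-proximal sites (median 85) but about the same as intergenic sites (median 57). The difference was also present within ranges of the score, although the range above 85 has no upper limit. The third quartile of the control score was 169 at TSS-proximal, 86 at intergenic and 85 at gene-body sites. Scores above 85 were therefore not matched between gene-body and TSS-proximal sites. Among sites with a control score above 85, 36.7% (35.3 to 38.1, n = 4649) of gene-body sites had no kd peak, beside 26.3% (25.1 to 27.6, n = 4850) of intergenic and 8.23% (7.83 to 8.65, n = 17368) of TSS-proximal sites. Among sites with a score of up to 38, these shares were 82.4%, 70.6% and 68.9%. In each of the 4 score ranges the gene-body share was highest, and its interval did not overlap with the others.

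**Figure D1:**
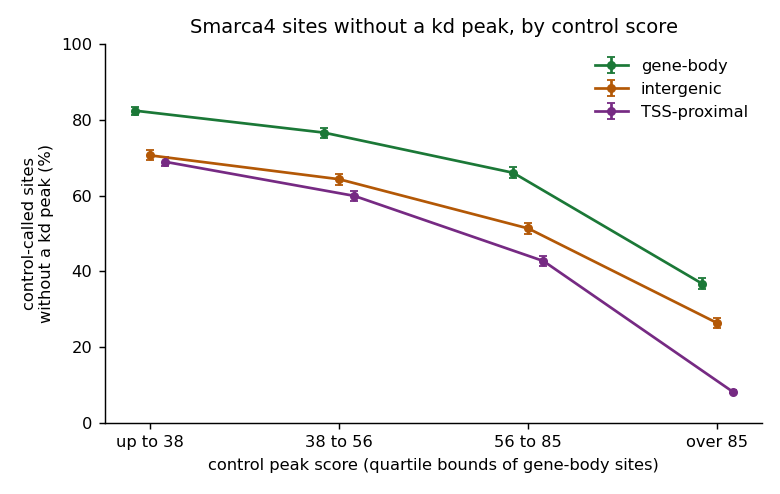
Percent of control-called Smarca4 sites without a kd peak (y axis) by the control peak score in 4 ranges (x axis), for gene-body, intergenic and TSS-proximal sites, with 95% Wilson intervals. The gene-body share fell from 82.4% to 36.7% with the score and lay above both other groups in each range.

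Shared sites were broader and had higher scores than the rest. A shared site joins overlapping peaks of both lists, so that part of its greater width follows from the merging. Their median width was 731 bp, beside 324 bp for control-only and 263 bp for kd-only sites. The median control score was 78 at shared and 49 at control-only sites, and the median kd score was 64 at shared and 42 at kd-only sites. In the decile of control-called sites with the highest scores (130 to 793), 20.4% (18.7 to 22.3) had no kd peak, and in the decile with the lowest (13 to 28), 84.5% (82.8 to 86.0).

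Repeat-masked sequence divided the 3 classes. At least 50% of the bases were repeat-masked in 29.7% (28.5 to 30.9) of kd-only sites, 14.1% (13.3 to 15.0) of shared sites and 5.86% (5.47 to 6.29) of control-only sites. The gene bodies searched were the 837 Mb of protein-coding gene sequence more than 2.5 kb from a TSS, called gene-body sequence below. Of its bases, 28.8% were repeat-masked, which is a share of bases and cannot be set against these shares of sites. Of the 3406 sites that were at least 50% repeat-masked, 51.4% were kd-only and 21.6% control-only. Of the other 21518 sites, 19.3% were kd-only and 54.8% control-only. Only uniquely mapped reads had been kept by the authors, and the part of this filter in the result was not tested.

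Smarca4 sites inside genes were mostly intronic, as is the sequence they lay in, but exons held more of them per base. The midpoint lay in an intron at 21480 sites (86.2%, 85.7 to 86.6), while introns made up 93.7% of the gene-body sequence. Coding exons held 2192 sites (8.79%, 8.45 to 9.15) in 2.34% of the sequence, which is 112 sites per Mb beside 27.4 per Mb in introns. Untranslated exons of coding transcripts held 1014 sites (4.07%) in 2.98% of the sequence, or 40.6 per Mb. The exons of non-coding transcripts of these genes held 238 sites (0.955%), close to their 0.951% share of the sequence.

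Exonic sites were also kept more often. Of control-called sites, 45.1% (42.7 to 47.6) in coding exons had no kd peak, beside 64.3% (60.8 to 67.7) in untranslated exons and 67.9% (67.2 to 68.6) in introns. The difference between exons of all kinds and introns was present in every score range, with 19.5% (16.8 to 22.5) in exons and 39.9% (38.4 to 41.4) in introns above a score of 85. Coding-exon sites differed from intronic sites in other ways as well. H3K27me3 islands of control cells covered 51.4% (49.3 to 53.5) of them and 21.3% (20.8 to 21.9) of intronic sites, and H3K27ac islands covered 2.42% (1.85 to 3.15) and 20.3% (19.8 to 20.8). Their median GC content was 59.3%, beside 52.0% at intronic sites, and 0 of 2192 were at least 50% repeat-masked, beside 15.6% of intronic sites.

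Along the gene, control-only sites were densest near the start and kd-only sites near the end. Each site was placed by its midpoint between the start (0%) and the end (100%) of every gene that held it, which gave 25892 pairs of site and gene, since 810 sites lay in more than 1 gene. Control-only sites fell from 19.0 per Mb in the first 10% of the gene to 14.4 per Mb in the last 10%, with the lowest density of 13.1 per Mb between 50 and 60%. The kd-only sites rose from 7.0 to 9.28 per Mb between the first and the last 10%. Shared sites were at 8.4 per Mb in the first 10%, 6.89 per Mb at their lowest, between 60 and 70%, and 9.64 per Mb in the last 10%. Accordingly, 69.3% (67.1 to 71.4) of the control-called pairs in the first 10% and 59.9% (57.8 to 61.9) of those in the last 10% had no kd peak.

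The first intron of the longest coding transcript held 33.4% (32.6 to 34.3) of control-only sites, 28.5% (27.4 to 29.6) of shared sites and 23.6% (22.6 to 24.7) of kd-only sites, in 20.8% of the gene-body sequence. The distance to the nearest TSS had a median of 9425 bp, with quartiles of 4970 and 19547 bp. Between 2.5 and 100 kb from a TSS, the share of control-called sites without a kd peak stayed between 64.1% and 68.2%. It was 58.2% (52.4 to 63.8) at the 280 control-called sites more than 100 kb away. H3K27ac covered 15.2% of the sites at 2.5 to 5 kb and 44.7% of those beyond 100 kb.

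**Figure D2:**
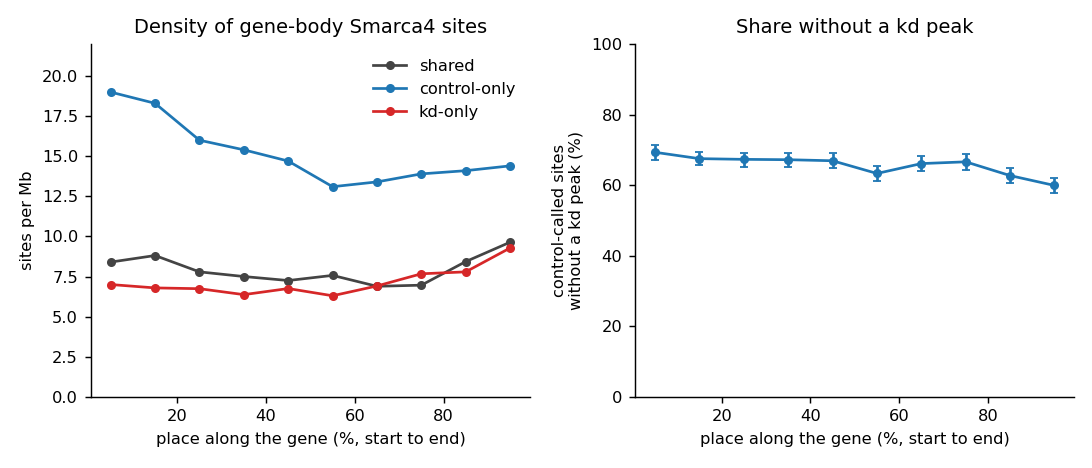
Left, density of shared, control-only and kd-only gene-body sites (sites per Mb of gene-body sequence) in 10 bins from gene start to gene end. Right, percent of control-called sites without a kd peak in the same bins, with 95% Wilson intervals, which was 69.3% in the first and 59.9% in the last bin.

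Most gene-body sites carried none of the histone marks called in control cells. By their midpoint, 13469 sites (54.0%) lay in no island of H3K27ac, H3K4me3 or H3K27me3. H3K27me3 without H3K4me3 covered 5742 sites (23.0%), H3K27ac alone 2385 (9.57%), H3K27ac with H3K4me3 2021 (8.11%), H3K4me3 alone 964 (3.87%) and H3K27me3 with H3K4me3, the bivalent state, 343 (1.38%). Each mark was nevertheless more frequent at the sites than in the gene-body sequence. H3K27ac covered 18% of the sites and 4.13% of the sequence, H3K4me3 13.4% and 1.97%, and H3K27me3 24.4% and 6.53%. At the sites under 50% repeat-masked, the shares were 11.9% for H3K27ac, 6.98% for H3K4me3 and 27.4% for H3K27me3.

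Sites without a mark were the ones most often missing in kd. Of the control-called sites, 76.2% (75.3 to 77) of the unmarked sites had no kd peak, beside 63.5% (62.1 to 64.9) of those in H3K27me3 without H3K4me3, 54.1% (49.8 to 58.3) in H3K4me3 alone, 53.4% (51.2 to 55.7) in H3K27ac alone, 20.0% (17.8 to 22.4) in H3K27ac with H3K4me3 and 12.8% (9.47 to 17.2) in bivalent islands. Bivalent sites also had the highest scores, with a median of 134 in control beside 51 at unmarked sites. The range above 85 has no upper limit, so that scores were not matched between the states in it. Above a score of 85, the share without a kd peak was 50.1% (48.0 to 52.2) at unmarked sites, 31.4% (28.7 to 34.2) in H3K27me3 without H3K4me3, 30.4% (27.1 to 34.0) in H3K27ac alone, 24.3% (18.2 to 31.7) in H3K4me3 alone, 9.26% (6.73 to 12.6) in H3K27ac with H3K4me3 and 4.46% (2.36 to 8.25) in bivalent islands.

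The low share in H3K27ac with H3K4me3 went together with repeats, since 70.6% of those sites were at least 50% repeat-masked. Among the repeat-masked sites of this state, 7.26% (5.55 to 9.44) had no kd peak, and among the others 37.6% (33.5 to 42.0). The order of unmarked sites, H3K27me3 sites and bivalent sites was the same without repeat-masked sites, at 75.8%, 63.2% and 14.1%. Of all sites in H3K27ac with H3K4me3, 41.3% were kd-only and 11.7% control-only. These shares were 45.5% and 29.5% in H3K4me3 alone, and 16.0% and 10.8% in bivalent islands. In the remaining states control-only sites outnumbered kd-only sites. Without repeat-masked sites, H3K27ac with H3K4me3 had 497 control-called and 408 kd-called sites, H3K4me3 alone 480 and 343, and bivalent islands 263 and 257.

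**Figure D3:**
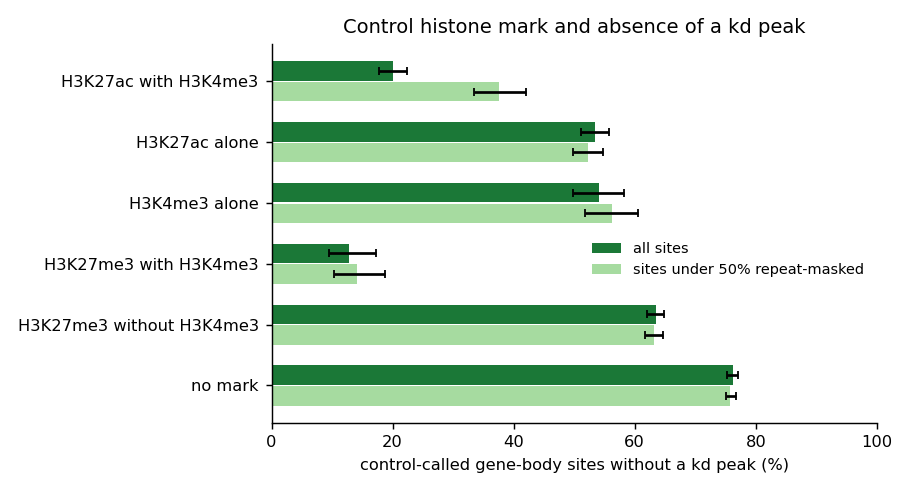
Percent of control-called gene-body sites without a kd peak (x axis) by the histone mark islands of control cells at the site (y axis), for all sites and for sites under 50% repeat-masked, with 95% Wilson intervals. Unmarked sites had the highest share (76.2%) and bivalent sites the lowest (12.8%).

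The marks themselves differed between conditions at these sites. H3K27me3 covered 24.4% (23.9 to 25) of all gene-body sites in control and 15.7% (15.2 to 16.1) in kd, and its share of the gene-body sequence was 6.53% and 4.27%. Of the 6085 sites in a control H3K27me3 island, 43.5% (42.2 to 44.7) lay in none in kd. H3K27ac covered 18% of sites in control and 19.0% in kd. At control-only sites with H3K27ac in control, 56.3% (53.5 to 58.9) had no H3K27ac in kd, beside 19.6% (17.9 to 21.5) at shared sites and 13.3% (11.6 to 15.2) at kd-only sites. For H3K4me3, 48.7% (44.6 to 52.9) of the marked control-only sites lacked the mark in kd, beside 13.3% (11.7 to 15.2) of shared and 17.8% (15.8 to 19.9) of kd-only sites. For H3K27me3, the shares were 44.0% at control-only, 36.5% at shared and 52.6% at kd-only sites.

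Ezh2 peaks were rare at gene-body sites and more frequent in kd, as they were at TSS-proximal sites (4.81% of 43370 sites in control and 9.59% in kd). At gene-body sites they covered 156 sites (0.626%, 0.535 to 0.732) in control and 309 sites (1.24%, 1.11 to 1.38) in kd, although the share of the gene-body sequence in an Ezh2 peak was 0.0623% in control and 0.0484% in kd. Of these sites, 149 had Ezh2 in both conditions, 7 in control alone and 160 in kd alone. Most of the last group, 120 sites, were shared Smarca4 sites. Immunoprecipitation, libraries and sequencing for Smarca4 and H3K27me3 came from Active Motif, whereas the other antibodies were precipitated by the authors and their libraries made at a core facility, so that differences between these antibodies cannot be told apart from differences between laboratories.

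Motif matches in the central 300 bp of the sites were compared with all 2747124 non-overlapping 300 bp windows of the gene-body sequence. The Klf motif (GGGNGTGG), the letters bound by Klf factors of the pluripotency network, was found in 14.3% of the sites and 6.85% of the windows. The Esrrb motif (TCAAGGTCA), bound by an orphan nuclear receptor of that network, was found in 1.26% and 0.696%. The CTCF consensus, bound by the insulator protein, was found in 0.758% and 0.149%. In contrast, the A/T-rich octamer (ATTTGCAT), bound by Oct4, was found in 1.61% of the sites and 2.31% of the windows, and the Sox motif (CATTGT) in 11.9% and 17.6%. AP-1 (TGANTCA) at 8.05% and 8.92%, and Tead (GGAATGT) at 4.22% and 4.11%, were near the window shares. The sites had a median GC content of 52.67% and the windows 42.3%, and the part of this difference in the motif shares was not tested.

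Control-only sites held more matches than shared or kd-only sites for 6 of these 7 motifs, and the CTCF consensus was the exception. The octamer was found in 2.04% (1.8 to 2.30) of control-only, 1.32% (1.07 to 1.63) of shared and 1.02% (0.791 to 1.31) of kd-only sites, and the Sox motif in 14.4% (13.8 to 15.0), 9.93% (9.22 to 10.7) and 8.85% (8.15 to 9.60). The intervals of control-only and shared sites overlapped for Esrrb and Klf. The CTCF consensus was found in 0.391% (0.296 to 0.517) of control-only, 0.676% (0.504 to 0.906) of shared and 1.63% (1.33 to 1.98) of kd-only sites. Median GC content was 51.67% at control-only, 54.67% at shared and 53.67% at kd-only sites.

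Gene-body sites were spread over 6296 genes, which were 34.6% (33.9 to 35.3) of the 18209 genes with sequence more than 2.5 kb from a TSS. The median was 2 sites per gene with a site and the mean 4.11. A single site was held by 2478 genes (39.4%), while 581 genes held 10 or more and together accounted for 43.2% of the pairs of site and gene. The share of genes with a site rose with the length of their gene-body sequence, from 17% under 10 kb to 98.5% over 500 kb, whereas the density fell from 7.27 to 1.27 sites per 100 kb. The share of control-called sites without a kd peak was 53.4% (50.9 to 55.9) in genes with under 10 kb, 69.9% (68.6 to 71.2) in those with 100 to 250 kb and 61.4% (58.9 to 63.8) in those over 500 kb.

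The share of genes with a site differed between promoter states. Genes with both H3K4me3 and H3K27me3 within 1 kb of a TSS held a site in 53.6% of cases, beside 40% of genes with H3K27me3 alone, 37.2% of genes with H3K4me3 and H3K27ac but no H3K27me3, 28.1% of genes with H3K4me3 alone and 14.2% of genes with neither H3K4me3 nor H3K27me3. Density was highest in genes with H3K4me3 and H3K27ac promoters, at 4.21 sites per 100 kb, and lowest in genes with neither, at 1.36. Genes with both H3K4me3 and H3K27me3 had 3.28, beside 3.02 over all genes. These 4871 genes held 426 Mb of gene-body sequence, while the 2796 genes with H3K4me3 and H3K27ac held 102 Mb. The part of gene length in the shares of genes with a site was not tested. Sites of genes with H3K4me3 alone at the promoter most often had no kd peak (70.8%, 69.1 to 72.5), followed by genes with H3K4me3 and H3K27me3 (66.8%, 65.9 to 67.7). The share was 63.3% (61.6 to 65.0) with H3K4me3 and H3K27ac, 61.8% (59.6 to 64.0) with H3K27me3 alone and 52.1% (48.8 to 55.4) with neither, where 34.8% of the sites were at least 50% repeat-masked.

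The genes with the most sites were long. Gm20388, an annotated gene that spans 4435 kb of chromosome 8 and contains other genes, held 445 sites, of which 321 also lay in 1 of 33 other genes. Gse1, all of whose 158 sites lay within Gm20388 as well, had 136 control-called sites, 71 of them without a kd peak, and 121 of the 158 sites lay in H3K27me3 islands. Fgfr2, a receptor of fibroblast growth factors, held 102 sites in an annotated span of 2961 kb, and 79 of these also lay in other genes. Msi2, an RNA-binding protein of stem cells, held 86 sites, of which 77 were called in control and 42 in kd. Pitpnc1, a phosphatidylinositol transfer protein, held 75 sites with 62 called in control and 48 in kd, and Tns3 held 63 with 55 and 37. Casz1 (61 sites), Rnf220 (59), Nxn (56) and Zfp423 (54) completed the 10 genes. Zfp423, a zinc finger regulator of neural development, had 51 control-called and 17 kd-called sites, and all 10 genes had fewer kd-called than control-called sites.

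By density, short genes led. Hspb8, a small heat shock protein, held 7 sites in 6.87 kb of gene-body sequence, or 102 per 100 kb. Skor1, a transcriptional corepressor, and the homeobox genes Lhx5 and Nkx2-2 held 6, 6 and 5 sites, all of them in H3K27me3 islands. Of the 6 control-called sites of Lhx5, 5 had a kd peak, and of the 2 control-called sites of Nkx2-2, 2 had one. Smad7, the inhibitory Smad of TGF-β signalling, held 17 sites, of which 14 were called in control and 6 in kd. Gipc1, a PDZ scaffold, held 8, of which 6 were called in control and 2 in kd, with 0 shared, while Il12rb1 and Enc1 held 5 and 8.

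Within a gene, the share of control-called sites without a kd peak varied from none to all. It was computed for the 603 genes with at least 8 control-called sites, in which its median was 71% with quartiles of 56.1% and 83.3%. More than 50% of the control-called sites had no kd peak in 485 of these genes (80.4%, 77.1 to 83.4). In 54 genes no control-called site had a kd peak, and in 3 genes every one had. These genes were chosen by their control peaks alone, which favours peaks missing in kd, and no like count was made for genes chosen by kd peaks. Over all genes, 65.6% of the control-called pairs of site and gene had no kd peak. Of the 67 genes with at least 50% of their sites in H3K27ac islands, the median share was 55.6%, beside 66.7% in 131 genes with at least 50% in H3K27me3 islands and 75.0% in the other 405. Over all genes with a site, 3154 had more control-called than kd-called sites, 1928 had more kd-called sites and 1214 had equal numbers.

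**Figure D4:**
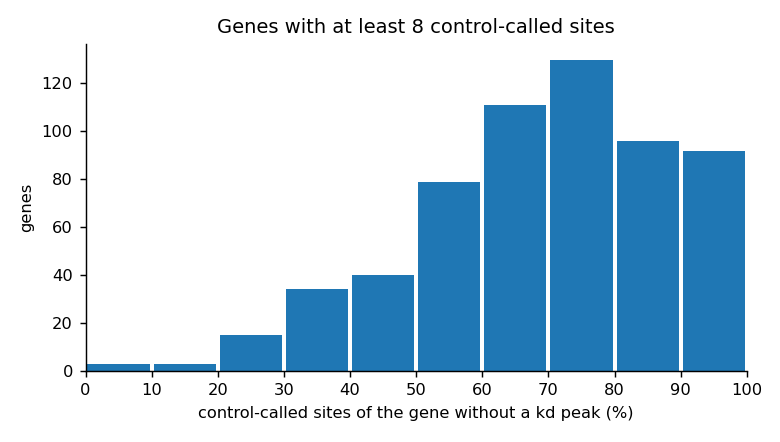
Number of genes (y axis) by the percent of their control-called gene-body sites without a kd peak (x axis, 10 bins, the last including 100%), for the 603 genes with at least 8 control-called sites. The bin from 70 to 80% held 130 genes, the most of any bin, and the 2 bins under 20% held 6 genes together.

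Neighbouring sites of a gene went together. Among 14641 pairs of adjacent control-called sites, with a median distance of 1747 bp, a site had no kd peak in 73.1% (72.5 to 73.7) of cases where its neighbour had none and in 54.3% (53.3 to 55.3) where its neighbour had one. These shares were 73.0% and 52.7% for neighbours up to 10 kb apart, and 73.5% and 61.0% for those further apart. A site can enter more than 1 pair.

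Sipa1l2, a GTPase-activating protein of Rap signalling, led the genes without kd peaks. All 33 of its sites were called in control, with scores from 23 to 164 and a median of 50.0, and 0 were called in kd (chromosome 8, 125418063 to 125569808). Vav2, Dab2ip, a Ras GTPase-activating protein, Galnt2, an enzyme of O-glycosylation, and Itpk1, an inositol phosphate kinase, likewise had 15, 16, 15 and 14 control-called sites and 0 kd-called sites. Anks1, Rai14 and Zfp521 each had 18 control-called sites, none of which had a kd peak, and 2, 1 and 1 further sites called in kd only. These 8 genes were taken, by their number of control-called sites, from the 54 genes in which no control-called site had a kd peak. Of these 8 genes, 6 had both H3K4me3 and H3K27me3 at the promoter in control cells, as did 4 of the 8 genes at the opposite end, and genes with such promoters held 13995 of all 25892 pairs of site and gene.

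The lowest shares were those of Mid1, Clmp and Katnal2, in which each of the 9, 8 and 8 control-called sites had a kd peak. Clmp, an adhesion molecule, had 8 sites with a median score of 85.5 in control and 88.5 in kd. Mid1, a microtubule-associated ubiquitin ligase on chromosome X, had 4 further kd-only sites, and 6 of its 13 sites were at least 50% repeat-masked. Cdh1, which encodes E-cadherin, the adhesion molecule of stem cell colonies, had 20 control-called sites, of which 16 had a kd peak. Cbx7, the main chromobox subunit of Polycomb repressive complex 1 in stem cells, had 14, of which 12 had a kd peak. Dmd, Scpep1 and Zdhhc19 had 8, 8 and 15, of which 7, 7 and 12 had a kd peak. Of the 21 sites of Cdh1, 18 lay in control H3K27ac islands, and for Scpep1 this number was 13 of 13. It was 12 of 13 for Mid1, 12 of 17 for Dmd, 5 of 8 for Clmp, 7 of 13 for Katnal2 and 9 of 17 for Zdhhc19, but 2 of 19 for Cbx7. Of the 17 sites of Dmd, 10 were at least 50% repeat-masked.

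Among genes with at least 8 sites, the share of kd-only sites was highest in Trpm3, a cation channel, with 7 of 8 sites, of which 6 were at least 50% repeat-masked. Adgrl3, an adhesion receptor, had 12 sites, of which 9 were kd-only and 9 repeat-masked. Cacng7, a subunit associated with AMPA receptors, had 12 sites with 9 kd-only, of which 2 sites in all were repeat-masked and 7 in H3K27ac islands. Agbl4, with 6 kd-only sites of 8, had the same share as Adgrl3 and Cacng7. Bcl7c, itself a BAF subunit, had 9 sites, of which 7 were called in kd only and 2 in control only, with 1 repeat-masked. Gm47283 on chromosome Y had 14 sites with 11 kd-only, in a gene whose sequence may share reads with copies elsewhere.

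Single sites of 6 genes, chosen after their values were seen, show these patterns. In Epha4, an ephrin receptor of axon guidance, 35 sites were called in control and 8 in kd, most of them between 39.3 and 76.3 kb from the gene start. H3K27ac islands covered 18 of these sites in control and 5 in kd. The strongest site, 61.1 kb from the gene start, had a score of 232 in control and 38 in kd, and scores were lower in kd at 6 of the 8 shared sites. In Esrrb, a nuclear receptor of naive pluripotency, 38 sites were called in control and 25 in kd, with H3K27ac at 23 sites in control and 20 in kd. Of its 17 shared sites, 15 lay between 104 and 149 kb from the gene start. The site with the highest scores, 137 kb from the gene start, had 190 in control and 232 in kd. Another site, at 118 kb, had 190 and 168, and scores were lower in kd at 10 of the 17 shared sites. In Cdh1, all but 4 of the control-called sites were shared, and the strongest, 30.1 kb from the gene start, had a score of 467 in control and 116 in kd. Scores were lower in kd at 13 of its 16 shared sites. In Tet2, which oxidises 5-methylcytosine, 14 sites were called in control and 18 in kd, and H3K27ac covered 23 and 22 of its 23 sites. Scores were lower in kd at 5 of its 9 shared sites.

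**Figure D5:**
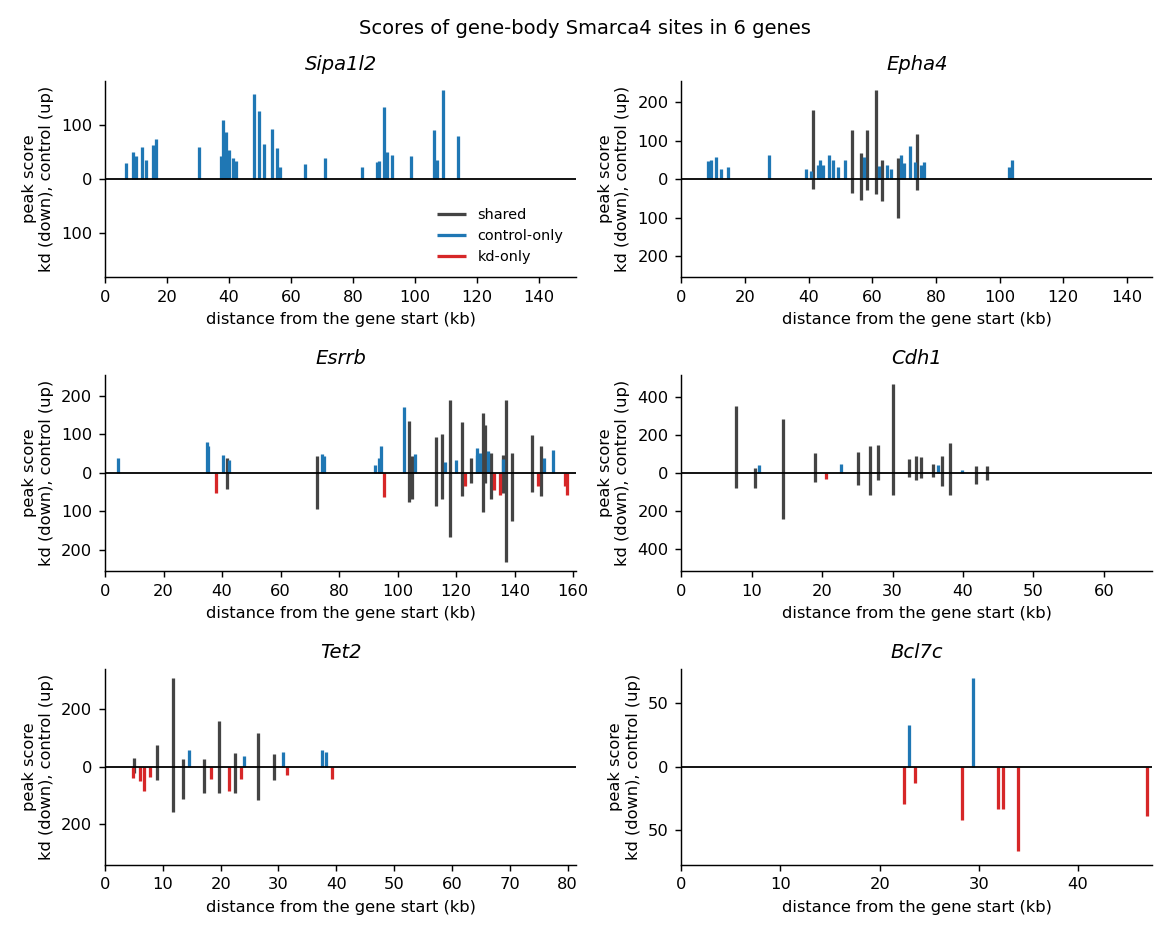
Peak scores of gene-body Smarca4 sites in control (bars up) and kd (bars down) against the distance of the site from the gene start (kb) in 6 genes, coloured by class. Sipa1l2 had 33 control-only sites, Epha4 27 control-only and 8 shared, Esrrb 21 control-only, 17 shared and 8 kd-only, Cdh1 16 shared of 21, Tet2 9 shared and 9 kd-only of 23, and Bcl7c 7 kd-only of 9.

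Gene lists were described by the same counts. Over all genes, 34.6% held a site and 65.6% of the control-called pairs of site and gene had no kd peak, with a median of 71.4% over the 5104 genes with a control-called site. Of 36 genes of the pluripotency network with gene-body sequence, 24 held sites, at 19.5 per 100 kb beside 3.02 over all genes. The median length of their gene-body sequence was 10.8 kb, beside 14.8 kb over all genes. Density over all genes was 7.27 sites per 100 kb in those with under 10 kb and 5.04 in those with 10 to 25 kb. The part of length in the density of this list was not tested. In this list 45.4% of the sites lay in H3K27ac islands. Of their 152 control-called sites, 85 (55.9%, 48.0 to 63.6) had no kd peak, and the median over genes was 50.0%. Esrrb (38 control-called and 25 kd-called), Tcf7l1, a repressor that counters the network (31 and 10), and Tet2 (14 and 18) held the most.

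Among 29 genes of BAF subunits, 16 held sites, and 58 of the 84 control-called sites (69.0%, 58.5 to 77.9) had no kd peak, with a median of 71.4%. Arid1a, the large DNA-binding subunit of canonical BAF, had 8 control-called sites, none with a kd peak, and 4 kd-only sites. Its paralogue Arid1b had 21 control-called sites, of which 5 had a kd peak, and Bicral, a subunit of non-canonical BAF, had 16, of which 9 had one, besides 12 kd-only sites. Among 34 genes of Polycomb subunits, 18 held sites, and 37 of the 77 control-called sites (48.1%, 37.3 to 59.0) had no kd peak, with a median of 35.2%. Bcor had 22 control-called sites with 12 kept, Cbx7 14 with 12 kept, and Jarid2, a cofactor of Polycomb repressive complex 2, 15 with 3 kept.

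Lists of the nervous system and of adhesion held many long genes, and their density was 3.25 sites per 100 kb for axon guidance, 1.61 for adhesion and matrix and 1.59 for receptors and channels of synapses, beside 3.02 over all genes. Of 71 axon guidance genes, 49 held sites, and 198 of 308 control-called sites (64.3%, 58.8 to 69.4) had no kd peak, with a median of 57.1%. Besides Epha4, Ephb2, another ephrin receptor, had 35 control-called and 6 kd-called sites, and Nrp2, a semaphorin coreceptor, 29 and 19. Of 133 genes of cell adhesion and matrix, 82 held sites, and 179 of 302 (59.3%, 53.6 to 64.7) had no kd peak, with a median of 60.0%. Cdh4, or R-cadherin, had 28 control-called and 3 kd-called sites, Cdh13 22 and 8, and Cdh22 22 and 14, with all 23 sites of Cdh22 in H3K27me3 islands. Of 169 genes for receptors and channels of synapses, 108 held sites, and 226 of 348 (64.9%, 59.8 to 69.8) had no kd peak, with a median of 60.0%. Grik3, a kainate receptor, had 48 control-called and 18 kd-called sites, Cacna1a, a calcium channel, 32 and 15, and Dlg5, a scaffold protein, 19 and 3. Only 16 ribosomal protein genes had gene-body sequence, with a median length of 1.32 kb, and 6 of these held 13 sites in all, at 19.4 per 100 kb, about the density of the pluripotency list. Of these sites, 7 were called in control, and 1 of those had a kd peak. Rps14 held 5, Rpl7l1 3 and Rps24 2 of them.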

How the data were processed

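ChIP-seq peak lists of 5 antibodies, each with 1 library from control and 1 from Smarcb1 kd cells, were used. According to the methods of the study and the labels, the authors trimmed reads with Trim Galore, aligned them to mm10 with Bowtie2, kept uniquely mapped reads with few mismatches (samtools 1.9), and called Smarca4 and Ezh2 peaks with MACS2 and histone mark islands with SICER, library by library. The methods name input as background, whereas the peak names carry IgG. The deposited score of a Smarca4 or Ezh2 peak is the authors' MACS2 score. The deposited p-value of an island is the authors' SICER p-value, which they had filtered, with the highest at 9.990e-06 for H3K27ac. The lists carry no read counts, so the depth is unknown.

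The members and gene lists were chosen with earlier results of these data known. Peaks on chromosomes 1 to 19, X and Y were merged with bedtools 2.31.1 (0 to 61 lines per list lay elsewhere). Genes, exons and TSS came from GENCODE M21, while the study names a later release. Exon class and marks were read at the midpoint of a site. A control-called site was one that held a control peak, and its score was the highest of its peaks. Genes named are the 10 with the most sites, the 8 with the highest density among those with at least 5 sites, the 8 with the highest and the 8 with the lowest share of control-only sites among those with at least 8 control-called sites, the 5 with the highest share of kd-only sites, and the 3 of each gene list with the most sites. Ties in the share of control-only sites were broken by the number of control-called sites, then by symbol. Sites named are those with the highest score of their class. Sequences were read from GRCm38. The overlap steps were tested on simulated lists. Alternatives were a score of at least 50, exclusion of repeat-masked sites, other gene, TSS and overlap rules, lists of equal length, exclusion of chromosomes 8, X and Y, and stricter island p-values.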

Additional observations from a re-analysis of the deposited data

How the results depend on the processing

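Of 70 values (9 results under 9 alternatives, where each applied), 38 stayed within the counting interval of the main value (for the mean number of sites per gene, within 1.5 times of it) and 32 shares moved out of that interval, most by little. The share of gene-body sites called in control only (50.2%) was 55.3% at a score of at least 50, 54.8% with sites under 50% repeat-masked, 49.6% with TSS of protein-coding genes alone and 46.5% with lists of equal length. For kd-only sites (23.7%) it was 20.9%, 19.3% and 26.8% at a score of at least 50, under 50% repeat-masked and with equal lists. Control-only sites outnumbered kd-only sites under each of the alternatives that recomputed both. The exon share (13.8%) was 15.8% under 50% repeat-masked, 11.5% beyond 5 kb from a TSS and 20.4% with any overlap of 1 bp. The share in the first 20% of the gene (19.7%) was 17.6% beyond 5 kb.

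The share in H3K27ac (18%) was 23.5% at a score of at least 50, 11.9% under 50% repeat-masked, 19.0% beyond 5 kb, 19.4% with 1 bp overlap, 18.8% with equal lists and 14.8% with stricter islands. In the same order, H3K4me3 (13.4%) was at 17.7%, 6.98%, 12.9%, 13.8%, 14.1% and 11.2%, and at 12.8% without chromosomes 8, X and Y. H3K27me3 (24.4%) was at 27.4% under 50% repeat-masked, 25% with TSS of protein-coding genes, 22.2% beyond 5 kb, 25.3% with 1 bp overlap, 23.6% without chromosomes 8, X and Y and 21.4% with stricter islands. The share of genes with more than 50% of their control-called sites missing in kd (80.4%) was 85.0% at a score of at least 50 and 76.7% with equal lists. Apart from the alternatives' own construction, the cause was not tested. Leaving out a replicate was not possible with 1 library per condition. No paired analysis was possible because the results come from no test. With the depth unknown, a site absent from a list may lie under the calling threshold.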
